A study of Homo sapiens with 7 samples.

Results

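Chromosomes 17, 19 and 22 of the human genome were examined in a chromatin immunoprecipitation series from HT1080 cells, an established fibrosarcoma line. The peaks were chosen by position alone. From the 7 deposited peak lists, all peaks on the 3 chromosomes were taken, leaving out the first and last 2 Mb of each, everything within 4 Mb of a centromere and 2 stretches of chromosome 19 (19800000 to 24400000 and 52300000 to 57000000, genome build hg19). This gave 5725 of the 148917 peaks of the series (3.84%) on 137 Mb of sequence that held peaks.

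Cells were transfected with siRNA to VRK1 (siVRK1) or with siRNA that has no target (siControl). Antibodies to 2 forms of histone H2A, phosphorylated at T120 (pT120) and ubiquitylated at K119 (ubK119), were used under both siRNAs, and unprecipitated DNA (input) was sequenced beside them. The VRK1 antibody was used under siControl alone, and loss of the VRK1 protein after siVRK1 cannot be checked in these data. Each of these 7 conditions is 1 library of 1 transfected line, with 20687408 to 40442635 reads, so no difference has a replicate check and no test between conditions was possible. All intervals given are 95% intervals of counting error only, since reads made by PCR are not separate molecules.

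VRK1 is a nuclear serine-threonine kinase that phosphorylates H2A at T120, the residue next to K119. Ubiquitin at K119 is placed by Polycomb repressive complexes and is a mark of repressed genes. Gene-dense chromosomes such as 17, 19 and 22 are rich in G and C bases and in broadly expressed genes, and in many cell types they lie towards the inside of the nucleus. The label of the 3 chromosomes holds by gene count: RefSeq (GRCh38.p14, used for names and numbers only) places 3071 of 19126 autosomal protein-coding genes on them, which is 16.1% of these genes on 6.65% of the autosomal length. Chromosome 19 has 1451 of these genes, chromosome 17 has 1169 and chromosome 22 has 451. The deposited lists carry no gene names and no annotation of hg19 was used here, so peaks are named by position.

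Gene density and peak density did not go together in a simple way. Chromosomes 17 and 19 were rich in ubK119 and VRK1 peaks, but not in these alone. By density they ranked 7 and 4 of 22 autosomes for VRK1, 8 and 5 for siControl pT120 and 7 and 6 for the siVRK1 input. In the siControl input they ranked 8 and 18. Chromosome 22 was poor in peaks of every library, inputs included. After siVRK1 the 3 chromosomes held few pT120 peaks for their size and many ubK119 peaks. The siVRK1 pT120 list had 737 peaks there, 5.39 per Mb (5.005 to 5.79), against 17.03 per Mb (16.86 to 17.203) on the other 19 autosomes trimmed in the same way, 0.316 times (0.294 to 0.340) as dense. After siVRK1 there were 954 ubK119 peaks, 6.97 per Mb (6.54 to 7.43), against 4.24 per Mb (4.16 to 4.33), a ratio of 1.64 (1.54 to 1.76). The 1437 siControl ubK119 peaks gave a ratio of 1.03 (0.979 to 1.09), the 892 VRK1 peaks 1.09 (1.02 to 1.16) and the 225 siControl pT120 peaks 0.794 (0.692 to 0.908). These last 3 ratios took either side of 1 with the settings. Chromosome 18 was the densest of the other autosomes in every list, and without it siControl pT120 was at 1.14 (0.994 to 1.31), VRK1 at 1.27 (1.19 to 1.36) and siControl ubK119 at 1.17 (1.11 to 1.23), while siVRK1 pT120 was at 0.338 and siVRK1 ubK119 at 1.83. With heights of at least 20 reads the ratios were 1.91 for siControl pT120, 0.852 for VRK1 and 0.857 for siControl ubK119. VRK1 was also at 0.989 without chromosome 17 and at 0.923 without chromosome 19. The siVRK1 pT120 density ratio depended on peak height and on chromosome: with peaks of at least 0.600 RPM in height (reads scaled to the library's total, as the authors deposited them) it was 1.03, and without chromosome 17 it was 0.143. For siControl pT120 the ratio was 1.15 outside input peaks.

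Input DNA was not evenly covered either. The siVRK1 input had 1011 peaks on the 3 chromosomes and the siControl input 469, while on the other autosomes it was 17017 and 14912. The siVRK1 input was thus at 0.967 times (0.906 to 1.03) the density of the other autosomes and the siControl input at 0.512 times (0.466 to 0.561). With chromosome 18 left out of the other autosomes these were 1.10 (1.03 to 1.17) and 0.602 (0.548 to 0.660). Without chromosome 17 the siControl input was at 0.327 times. The gap between the inputs was widest on chromosome 19, with 376 siVRK1 and 118 siControl input peaks. With both lists held to the same minimum height of 0.446 RPM, 499 siVRK1 and 469 siControl input peaks remained. At that height chromosome 19 kept a surplus, with 195 siVRK1 and 118 siControl input peaks, and chromosome 17 had 266 and 321. The ratio of siVRK1 over siControl input peaks was then 1.06 on the 3 chromosomes, against 0.644 on the other autosomes.

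The order of the 3 chromosomes differed between libraries. Chromosome 17 led for siVRK1 pT120 with 8.27 peaks per Mb, against 3.35 on chromosome 19 and 1.15 on chromosome 22, the lowest of all 22 autosomes. Chromosome 19 led for VRK1 with 8.94 per Mb, against 7.10 on chromosome 17 and 1.65 on chromosome 22. For ubK119 after siVRK1, chromosomes 17 and 19 had 8.32 and 7.83 per Mb and ranked 3 and 4 of 22. In siControl cells they had 12.96 and 11.5 ubK119 peaks per Mb and ranked 6 and 7. Within chromosome 19 the siControl ubK119 peaks lay mostly on the long arm, with 15.2 per Mb against 6.97 on the short arm, while VRK1 peaks were at 8.25 and 9.78 per Mb. Chromosome 18 had up to 67.6 peaks per Mb.

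**Figure D1:**
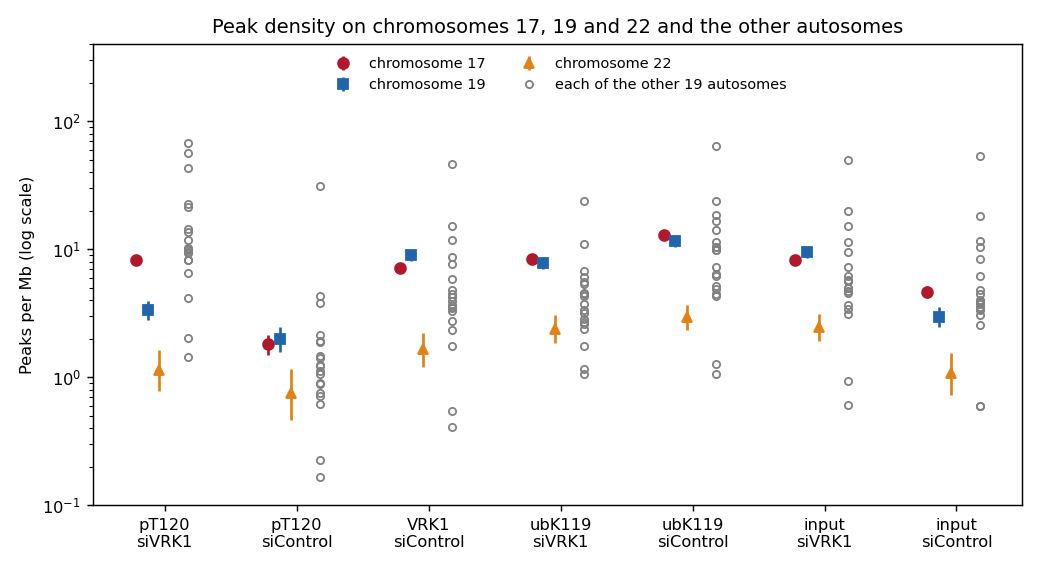
Peaks per Mb (log scale) in each of the 7 lists on chromosomes 17, 19 and 22 (filled symbols, with 95% Poisson intervals) and on each of the other 19 autosomes (open circles). Chromosome 22 lies below chromosomes 17 and 19 in every list, and in the siVRK1 pT120 list all of its 19 comparators lie above it.

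Numbers of called peaks under the 2 siRNAs depended on how low each list reached. The siVRK1 pT120 list held 737 peaks on the 3 chromosomes and the siControl list 225, but their lowest heights were 0.333 and 0.580 RPM. Above 0.580 RPM, 31 siVRK1 and 225 siControl pT120 peaks were left, which turns the order round. For ubK119 the 2 lists held 954 and 1437 peaks, and above 0.600 RPM, the lowest height of the siVRK1 list, 954 and 38. Read counts at regions called in a library outside the pair were therefore compared.

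At regions called with the VRK1 antibody, pT120 was lower and ubK119 higher after siVRK1. Both differences were larger than on the other autosomes summed, though not than on each of them. On chromosome 21 the pT120 ratio was 0.361 and the ubK119 ratio 2.30. The 878 VRK1 regions whose reads did not pass 100 in either input held 98.6 RPM of pT120 in siVRK1 and 230 RPM in siControl cells. The ratio was 0.429 (0.411 to 0.448), against 0.538 (0.533 to 0.543) on the other autosomes, that is 0.798 times (0.763 to 0.834) theirs. The ubK119 level was 303 RPM in siVRK1 and 166 RPM in siControl cells, a ratio of 1.83 (1.77 to 1.89), against 1.55 (1.54 to 1.56) on the other autosomes. Input DNA moved as well: it stood at 247 RPM in siVRK1 and 185 RPM in siControl cells, a ratio of 1.34 (1.29 to 1.39), against 1.12 (1.11 to 1.13). Without chromosome 18 the other autosomes were at 0.485 (0.480 to 0.491) for pT120, 1.68 (1.67 to 1.69) for ubK119 and 1.16 (1.15 to 1.17) for input.

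Set against its input, the pT120 difference on the 3 chromosomes grew and the ubK119 excess over the other autosomes was no longer seen. Divided by the input ratio, pT120 was at 0.321, against 0.481 on the other autosomes. For ubK119 the same quotient was 1.37, against 1.39. The part of input coverage in these differences was not tested. Regions called in the siVRK1 input gave almost the same ratios as VRK1 regions, 0.420 (0.403 to 0.438) for pT120 and 1.83 (1.77 to 1.88) for ubK119. Regions called in the siControl input gave 0.598 (0.566 to 0.633) and 1.46 (1.40 to 1.53).

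The direction for ubK119 depended on which list supplied the regions. At the 724 regions of the siVRK1 pT120 list, ubK119 was at 107 RPM in siVRK1 and 128 RPM in siControl cells, a ratio of 0.831 (0.795 to 0.868), and input at 0.985 (0.938 to 1.03). At the 210 regions of the siControl pT120 list the ubK119 ratio was 1.49 (1.41 to 1.58), close to the 1.53 (1.52 to 1.55) of the other autosomes. The pT120 ratio was below 1 with each set of regions it was read at: 0.404 (0.387 to 0.421) at siVRK1 ubK119 regions and 0.708 (0.683 to 0.733) at siControl ubK119 regions. On the other autosomes these were 0.439 (0.434 to 0.445) and 0.870 (0.864 to 0.877). Higher VRK1 peaks gave ratios nearer to 1: with heights of at least 20 reads, pT120 was at 0.630 (0.577 to 0.688) and ubK119 at 1.39 (1.29 to 1.5).

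Counted region by region, the same directions appeared. Of the 878 VRK1 regions, 51 had at least 20 pT120 reads in the 2 libraries together. In 26 of these (51.0%) pT120 was at least 2-fold lower after siVRK1, where 31.3% of such regions on all chromosomes were, and in 0 it was 2-fold higher, against 2.32% of all. For ubK119, 239 regions had enough reads, and 49.8% of these were at least 2-fold higher after siVRK1 against 33% of all, with 4 lower against 2.4% of all. Input itself was at least 2-fold higher in 29 of 149 regions (19.5%), against 9.5% of all, and 2-fold lower in 2, against 2.88%. With at least 30 reads the shares were 41.9% (24.5 to 60.9) for lower pT120, 40.24% (29.6 to 51.7) for higher ubK119 and 8.93% (2.96 to 19.6) for higher input. The shares of all regions were not computed at that limit, so no excess over them can be read there. With at least 20 reads the shares of the 3 chromosomes lay above the level of all regions in the pT120 and ubK119 pairs and in the inputs alike.

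Levels relative to input were small for most antibodies on the 3 chromosomes. At VRK1 regions, pT120 in siVRK1 cells was at 0.399 times (0.383 to 0.415) its own input, against 0.514 (0.509 to 0.518) on the other autosomes. In siControl cells pT120 was at 1.24 times (1.19 to 1.29) the siControl input but at 0.929 times (0.896 to 0.963) the siVRK1 input, so its excess depended on the input used. ubK119 was at 1.23 times (1.19 to 1.26) input after siVRK1 and at 0.896 times (0.864 to 0.930) in siControl cells. VRK1 reads at siControl ubK119 regions were at 1.30 times (1.26 to 1.35) the siControl input, against 1.07 (1.06 to 1.08) on the other autosomes, and at 1.08 times (1.05 to 1.11) the siVRK1 input.

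At VRK1 regions chromosome 22 stood apart from chromosomes 17 and 19, and at the VRK1 regions outside input peaks this difference was not seen. At all VRK1 regions the pT120 ratio was 0.397 (0.374 to 0.422) on chromosome 17, 0.424 (0.396 to 0.455) on chromosome 19 and 0.714 (0.615 to 0.829) on chromosome 22, the highest of the 22 autosomes. The ubK119 ratio was 1.81 (1.74 to 1.89), 1.93 (1.84 to 2.03) and 1.42 (1.25 to 1.61) in the same order of chromosomes. The input ratio was 1.37 (1.31 to 1.44) on chromosome 17 and 1.38 (1.30 to 1.46) on chromosome 19, the 2 highest of the 22 autosomes, and 0.952 (0.836 to 1.08) on chromosome 22, the lowest. Outside input peaks, the 33 VRK1 regions of chromosome 22 had a pT120 ratio of 0.339 (0.2496 to 0.457), while ubK119 was at 2.24 (1.82 to 2.77) and input at 1.51 (1.18 to 1.94). These values overlap those of the 3 chromosomes together outside input peaks, which were 0.378 (0.358 to 0.399), 1.93 (1.85 to 2.001) and 1.36 (1.30 to 1.42). Regions of other lists outside input peaks differed in this. The pT120 ratio of chromosome 22 was 0.926 at siControl ubK119 regions, against 0.683 and 0.740 on chromosomes 17 and 19. At siVRK1 ubK119 regions it was 0.347, against 0.338 and 0.358. Its ubK119 ratio was 0.979 at siControl pT120 regions, against 1.75 and 1.72. At siVRK1 pT120 regions it was 0.598, against 0.675 and 0.794.

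Of the 46 VRK1 peaks of chromosome 22, 33 lay outside input peaks, a share near the 70.2% of the other autosomes. Without chromosome 18 the other autosomes had 80.5%, and all chromosomes had 65.5%. The remaining 13 overlapped an input peak, and 7 of them lay below 19 Mb, next to the trimmed edge. The tallest, at chr22:18881905-18882291, had a VRK1 height of 475 reads. It held 374 pT120, 316 ubK119 and 415 input reads in siVRK1 cells, against 299 pT120, 407 ubK119 and 364 input reads in siControl cells. All libraries were high there, and the regions with over 100 input reads, this one among them, were left out of the ratios above.

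**Figure D2:**
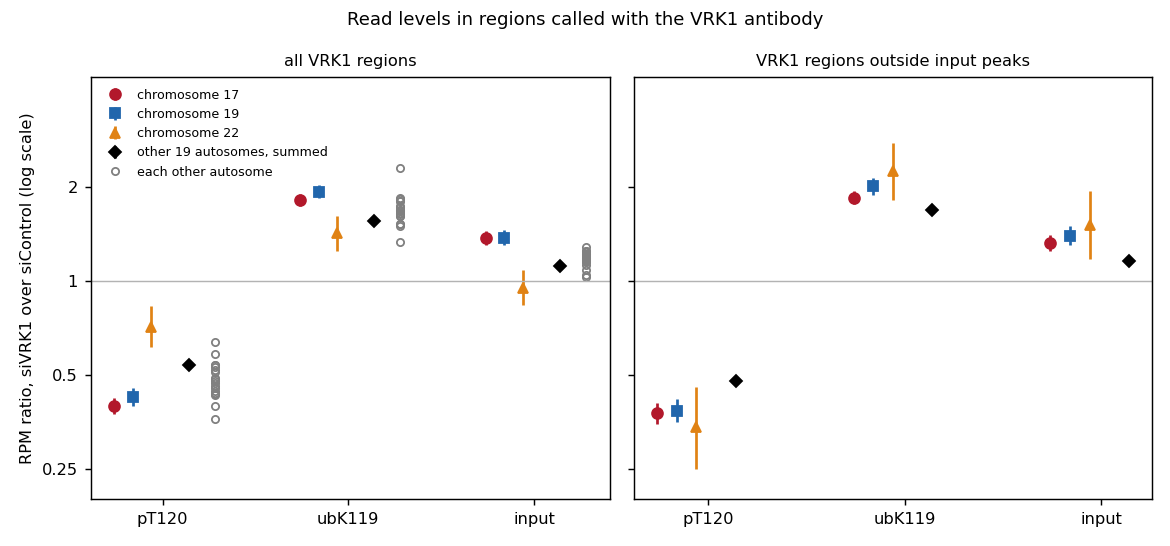
RPM ratio of siVRK1 over siControl (log scale) for pT120, ubK119 and input at VRK1 regions, all of them (left) or those outside input peaks (right). Filled symbols are chromosomes 17, 19 and 22, diamonds the other 19 autosomes summed and open circles each of them, with 95% intervals of counting error. On the left chromosome 22 lies nearer to 1 than chromosomes 17 and 19 for all 3 ratios, and on the right its intervals overlap theirs.

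At all VRK1 regions the pT120 and ubK119 intervals of the arms of chromosome 19 lay apart. Outside input peaks both differences were smaller and kept their direction. Their intervals then overlapped, which does not show that the arms were alike. On the short arm the pT120 ratio at VRK1 regions was 0.354 (0.318 to 0.394), and on the long arm 0.490 (0.446 to 0.538). The ubK119 ratio was 2.13 (1.98 to 2.30) on the short and 1.79 (1.67 to 1.91) on the long arm, and the input ratio 1.36 (1.25 to 1.48) and 1.39 (1.29 to 1.51). Outside input peaks the pT120 ratio was 0.342 (0.302 to 0.387) on the short and 0.427 (0.380 to 0.480) on the long arm, and the ubK119 ratio 2.14 (1.957 to 2.34) and 1.90 (1.75 to 2.07). On chromosome 17 the intervals of the 2 arms overlapped for all 3 ratios.

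Along chromosomes 17 and 19 the directions held in every stretch with enough regions. Of the 5 Mb windows, 19 had at least 20 VRK1 regions, all on chromosomes 17 and 19. The pT120 ratio was below 1 in 19 of 19, with a median of 0.400. It was lowest at 75 to 80 Mb of chromosome 17, at 0.286 (0.236 to 0.346), and at 0 to 5 Mb of chromosome 17, at 0.290 (0.204 to 0.408). The highest were 0.599 (0.498 to 0.719) at 40 to 45 Mb and 0.541 (0.438 to 0.667) at 35 to 40 Mb of chromosome 19. The intervals of the lowest and the highest of these windows did not overlap. No window of chromosome 22 had enough regions. At its 15 to 20 Mb, over 7 regions, pT120 was at 1.09 (0.879 to 1.37) and ubK119 at 0.752 (0.605 to 0.931). Input was at 0.796 (0.646 to 0.980) there. The other windows of chromosome 22 had pT120 ratios below 1 and ubK119 ratios above 1.

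The ubK119 ratio was above 1 in all 19 windows, with a median of 1.87. It was highest at 45 to 50 Mb of chromosome 19, at 2.45 (2.11 to 2.85), and at 10 to 15 Mb of the same chromosome, at 2.44 (2.06 to 2.90). It was lowest at 30 to 35 Mb of chromosome 17, at 1.27 (1.03 to 1.56), where the input ratio was highest at 1.71, and at 30 to 35 Mb of chromosome 19, at 1.45 (1.22 to 1.72). Input ratios were above 1 in the 19 windows as well, from 1.15 up. Across the windows, the log2 ratios of pT120 and ubK119 had a Pearson r of -0.46, those of pT120 and input 0.17 and those of ubK119 and input -0.10. With 2 Mb windows, 14 had enough regions and the first of these was -0.18. The windows share their libraries, so these values are descriptions.

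**Figure D3:**
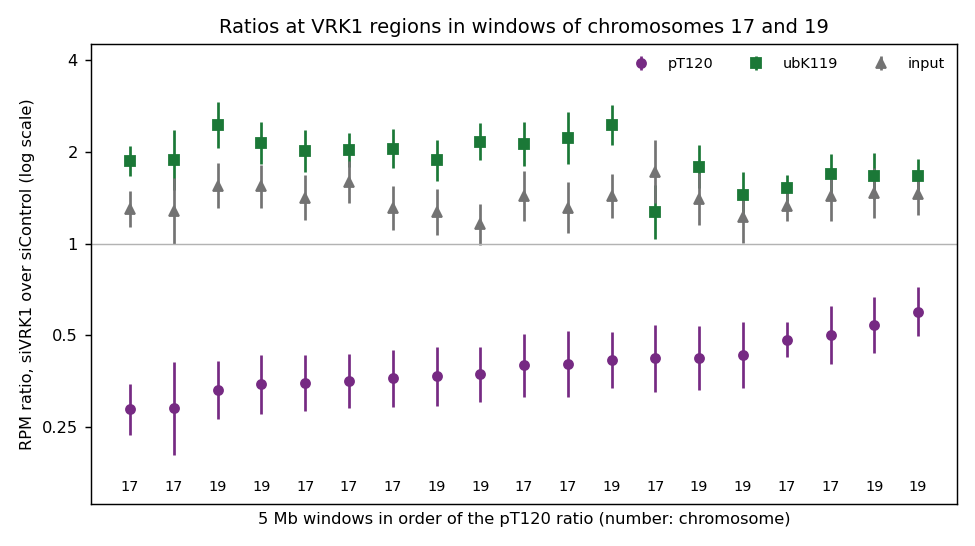
RPM ratio of siVRK1 over siControl (log scale) at VRK1 regions in the 19 windows of 5 Mb with at least 20 regions, in order of the pT120 ratio, with 95% intervals of counting error. All pT120 points lie below 1, and all ubK119 and input points lie above it.

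How the shares of common positions compared depended in part on whether chromosome 18 was counted among the other autosomes. Of 892 VRK1 peaks, 56 (6.28%, 4.78 to 8.08) overlapped a siControl pT120 peak, against 11.9% on the other autosomes, 5.66% (5.24 to 6.10) on these without chromosome 18 and 16.2% on all chromosomes. With siControl ubK119 peaks, 67 (7.51%, 5.87 to 9.44) overlapped, against 17.8% on the other autosomes, 9.65% (9.11 to 10.2) without chromosome 18 and 22.8% on all. Neither mark was called at 811 of the 892 VRK1 peaks (90.9%, 88.8 to 92.7), against 78.6% on the other autosomes and 88.4% (87.8 to 88.9) without chromosome 18. A siControl ubK119 peak lay at 46 of the 225 siControl pT120 peaks (20.4%, 15.4 to 26.3), against 31.4% on the other autosomes, 17.04% (15.7 to 18.4) without chromosome 18 and 42% on all. In these 4 comparisons the interval of the 3 chromosomes overlapped that of the other autosomes once chromosome 18 was left out. Such overlap does not show equal shares. VRK1 peaks with ubK119 were then still fewer (7.51% against 9.65%), and those with neither mark still more frequent (90.9% against 88.4%).

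The siVRK1 pT120 peaks of the 3 chromosomes had partners in 2 lists at rates near those of all chromosomes. These rates were above those of the other autosomes, where the siVRK1 pT120 list was also denser. The share of the partner lists was lower than on the other autosomes with chromosome 18 counted. Of 737 such peaks, 43 (5.83%, 4.25 to 7.78) overlapped a siVRK1 ubK119 peak, against 2.65% on the other autosomes, 1.15% without chromosome 18 and 5.03% on all chromosomes. As a share of the 954 siVRK1 ubK119 peaks this was 4.51% (3.28 to 6.02), against 10.4% on the other autosomes and 15.3% on all. A siControl pT120 partner was found for 41 (5.56%, 4.02 to 7.47), against 3.40% (3.22 to 3.59) on the other autosomes, 1.23% without chromosome 18 and 5.77% on all. The lists differ in length, and among the 225 siControl pT120 peaks, 42 (18.7%, 13.8 to 24.4) had a siVRK1 partner, against 29.5% on the other autosomes, 14.5% (13.3 to 15.8) without chromosome 18 and 39.3% on all chromosomes. Of the 954 siVRK1 ubK119 peaks, 12.7% (10.6 to 14.96) had a siControl ubK119 partner, against 20.97% on the other autosomes, 15.2% (14.4 to 15.9) without chromosome 18 and 27.1% on all. The inputs shared 7.42% (5.88 to 9.21) of siVRK1 input peaks, against 18.2% on the other autosomes, 10.4% (9.93 to 10.9) without chromosome 18 and 21.9% on all.

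Among high peaks the shares were larger. Of the VRK1 peaks of at least 20 reads in height, 51.7% (38.4 to 64.8) overlapped a siControl pT120 peak of that height and 58.3% (44.9 to 70.9) a siControl ubK119 peak.

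Many of these overlaps were at positions that input DNA shares. Outside input peaks, 10 of 745 VRK1 peaks (1.34%, 0.646 to 2.45) overlapped a siControl pT120 peak, against 2.18% (1.89 to 2.49) on the other autosomes, and these intervals overlap. For ubK119 it was 19 of 745 (2.55%, 1.54 to 3.95), against 5.90% (5.43 to 6.40) on the other autosomes and 4.98% (4.54 to 5.45) without chromosome 18. The share of peaks that lay outside input peaks was 89.8% (87.7 to 91.7) for siVRK1 ubK119, against 76.5% on the other autosomes, 84.8% (84.0 to 85.6) without chromosome 18 and 71% on all chromosomes. For siControl ubK119 it was 94.8% (93.5 to 95.9), against 85.4%, 92.9% (92.6 to 93.27) and 81.8% in the same order. For siControl pT120 it was 78.2% (72.3 to 83.4), against 53.8%, 73.7% (72.1 to 75.2) and 45.8%, and for VRK1 83.5% (80.9 to 85.9), against 70.2%, 80.5% (79.8 to 81.3) and 65.5%. For these 2 lists the intervals overlap without chromosome 18, though the shares of the 3 chromosomes were still the higher ones. For siVRK1 pT120 the share was 93.1% (91.0016 to 94.8), against 92.6%, 97.4% (97.2 to 97.6) and 89.5%.

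Some ubK119 peaks lay in a few dense stretches, though a smaller share of them than on the other autosomes. Of 528 bins of 250 kb, 11 (2.08%) held at least 20 siControl ubK119 peaks, against 2.58% of bins on the other autosomes, a limit chosen after the data were seen. Together they held 263 of the 954 siVRK1 ubK119 peaks (27.6%) and 343 of the 1437 siControl ones (23.9%). On the other autosomes the same rule held 42.1% of siVRK1 and 43.1% of siControl ubK119 peaks, and without chromosome 18 it held 34.9% and 34.8%. The densest were the neighbouring bins at chr17:77250001-77500000 and chr17:77000001-77250000, with 51 and 40 siVRK1 peaks against 60 and 39 siControl peaks, and chr19:46500001-46750000, with 42 siVRK1 against 41 siControl peaks. The siVRK1 library, which did not choose the bins, had 7 to 51 ubK119 peaks in each, whereas the siControl counts fixed the bins and are a description.

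Peaks of the other antibodies were fewer than ubK119 peaks in these bins. They held 12 siVRK1 and 5 siControl pT120 peaks (1.63% and 2.22% of those lists on the 3 chromosomes), 44 VRK1 peaks (4.93%), and 44 siVRK1 and 16 siControl input peaks (4.35% and 3.41%). On the other autosomes the bins of the same rule held 15.4% of siVRK1 pT120, 45.8% of siControl pT120 and 32.2% of VRK1 peaks, together with 26.7% of siVRK1 input and 26.4% of siControl input peaks. Without chromosome 18 these shares were 8.22%, 21.4%, 19.9%, 15.7% and 12.4% in the same order of lists. The 11 bins were 2.08% of the bins of the 3 chromosomes that held a peak of any list. On the 3 chromosomes the shares of VRK1 and of both inputs were above 2.08%, and those of the pT120 lists were close to it.

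In the 332 siControl ubK119 regions of the 11 bins outside input peaks, siVRK1 ubK119 stood at 1.99 times (1.89 to 2.10) its own input. The pT120 ratio there was 0.600 (0.556 to 0.647), against 0.753 (0.720 to 0.788) at the 1030 siControl ubK119 regions elsewhere on the 3 chromosomes. In the bins of the other autosomes it was 0.902 (0.889 to 0.914), and 0.805 (0.792 to 0.818) without chromosome 18. VRK1 was at 1.47 times (1.37 to 1.57) the siControl input in the 11 bins, and the input ratio was 1.36 (1.27 to 1.45).

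**Figure D4:**
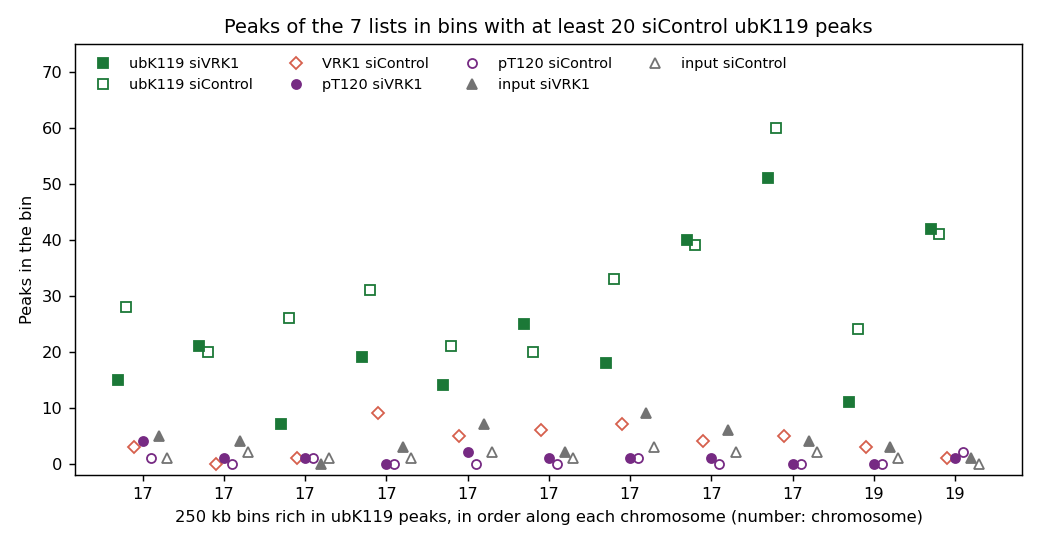
Number of peaks of each of the 7 lists (filled symbols siVRK1, open symbols siControl) in the 11 bins of 250 kb on chromosomes 17 and 19 with at least 20 siControl ubK119 peaks. ubK119 peaks lie between 7 and 60 per bin, and the pT120, VRK1 and input peaks at 9 or fewer.

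The longest siVRK1 ubK119 peaks outside input peaks lay close together at 46.7 Mb of chromosome 19. At chr19:46763472-46764746, ubK119 had 127 reads in siVRK1 and 43 in siControl cells, a ratio of 3.98 (2.80 to 5.77) that helped choose the peak. The other marks did not choose it: pT120 had 6 reads in siVRK1 and 26 in siControl cells there, a ratio of 0.132 (0.0446 to 0.329). Input had 18 siVRK1 and 12 siControl reads. At the neighbouring chr19:46733083-46734435 (1352 bp) pT120 had 10 and 18 reads and input 34 and 12 reads in siVRK1 and siControl cells, an input ratio of 2.29 (1.16 to 4.86). At chr19:46699520-46700961, 1441 bp and the longest, pT120 had 13 siVRK1 and 19 siControl reads. In each of these 3 regions pT120 had fewer reads in the siVRK1 library, which was the deeper of the pair.

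The longest siControl ubK119 peaks outside input peaks lay near 6 Mb of chromosome 17. At chr17:6125343-6126144, also called with pT120 after siVRK1, pT120 had 27 siVRK1 and 10 siControl reads, a ratio of 1.55 (0.727 to 3.59) whose interval includes 1. At chr17:6583698-6584525 it had 19 and 10 reads, a ratio of 1.09 (0.483 to 2.63). At chr17:6590267-6591064 input had 30 siVRK1 and 5 siControl reads, a ratio of 4.85 (1.86 to 16.02), although neither input had a peak there.

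On the 3 chromosomes 2 regions, both on the short arm of chromosome 19, were called with all 5 antibody libraries outside input peaks. That is 2 of 745 VRK1 peaks outside input peaks, against 20 of 9369 on the other autosomes. At chr19:6594711-6595101, pT120 had 27 reads in siVRK1 and 33 in siControl cells, ubK119 had 25 and 43, VRK1 had 33, and the inputs had 8 and 7. At chr19:16818076-16818467, pT120 had 19 and 27 reads, ubK119 28 and 32, VRK1 48, and the inputs 6 and 4. Every antibody library was above its input in both regions, and VRK1 at the second was at 10.1 times (3.69 to 38.5) input. The regions were chosen as called in every antibody library and in neither input, so these levels over input are descriptions. The pT120 ratios of siVRK1 over siControl were 0.470 (0.272 to 0.806) and 0.404 (0.212 to 0.754), and those of ubK119, 0.784 (0.459 to 1.31) and 1.18 (0.685 to 2.02), had intervals that include 1.

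Some of the highest peaks were called under 1 siRNA only for the mark that chose them. The second highest VRK1 peak outside input peaks, chr17:43225892-43226376, was called in no other library and held 53 VRK1 reads, with 2 siVRK1 and 2 siControl pT120 reads, 6 and 4 ubK119 reads, and 21 and 8 input reads. Among pT120 peaks found after siVRK1 only, the highest was chr17:44225076-44225546, with 27 reads in siVRK1 and 6 in siControl cells, and 0 against 14 ubK119 reads. Among those found in siControl cells only, the highest was chr17:76313426-76313738, with 3 pT120 reads in siVRK1 and 20 in siControl cells, and 1 against 20 ubK119 reads. For ubK119, 2 peaks of siVRK1 cells only, outside the stretch at 46.7 Mb, had the same height of 32 reads. At chr17:9855190-9855604 ubK119 had 38 against 14 reads and input 11 and 12, and at chr19:43056252-43057484 ubK119 had 103 against 50 reads. The highest of siControl cells only was chr17:35313579-35313958, with 13 against 28 ubK119 reads, and 16 against 14 pT120 reads. That region was also called with pT120 under both siRNAs and with VRK1. These peaks were chosen by their own heights, so their differences in the mark that chose them are descriptions.

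Few bins were dense in pT120 peaks of siVRK1 cells. The 3 bins with at least 11 of them were 0.568% of bins and held 43 of the 737 (5.83%). On the other autosomes 9.87% of bins met that rule and held 53.6%. Without chromosome 18 it was 9.67% of bins, which held 49.5%. A fixed number of peaks per bin is reached less often where a list is sparser, so these shares do not compare how clustered the peaks were. These bins were chosen after the data were seen, and none was among the 11 bins dense in ubK119. The bin chr17:36250001-36500000 held 21 siVRK1 and 3 siControl pT120 peaks, with 3 siVRK1 and 13 siControl ubK119 peaks and 1 siVRK1 and 5 siControl input peaks. The bin chr17:44250001-44500000 held 11 siVRK1 and 0 siControl pT120 peaks, and no ubK119 or VRK1 peak. In chr17:45000001-45250000, with 11 siVRK1 and 12 siControl pT120 peaks, the other 5 lists also had 10 to 14 peaks each, inputs included.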

How the data were processed

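Each list holds the peaks of 1 library, and the library names carry hg19, per the file headers. Partek, Bowtie 0.12.8 and CASAVA 1.8.2 stand without roles in the submitters' processing notes, and the labels' protocols give 20 cycles of PCR. For the peak caller's settings, for duplicates and for any use of input in calling, the steps are not given here. PCR copies may be part of any count.

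The deposited lists give each peak's position and length in bp. Per the file headers, the height is a signal, the maximum of extended reads in 1 window, and the authors also deposited it as RPM, scaled to the library's total reads. Height over RPM gave each library total. The deposited Mann-Whitney p-value per peak was not used in any comparison. Per the file headers, each list also holds the raw count of reads of all 7 libraries in its regions, and the percent of each region covered by peaks of each other library, which differed from the overlaps computed here in 0 cases. The count lay below the height in 30.5% to 42.3% of each list's peaks on the 3 chromosomes. Positions are as deposited, with no statement of their base.

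Densities used the length left by the rule, less stretches of over 1 Mb with no peak in any list, with exact Poisson intervals. Counts were divided by library totals to RPM and summed over regions not above 100 reads in either input, and ratios had exact conditional binomial intervals. Regions came from a library not among those compared, unless said otherwise. The difference between a ratio on the 3 chromosomes and on the other autosomes had a log-normal counting interval. Shares had Clopper-Pearson intervals, and overlap meant 1 bp. A level of 3 reads was 0.0742 to 0.145 RPM. No p-value was computed, since there was 1 library per condition and regions are not replicates. The ratio was tested on simulated data.

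Named were, outside input peaks, the 3 highest peaks of each antibody library, the 3 highest under 1 siRNA only for pT120 and for ubK119, those called in all 5 antibody libraries and the 3 longest ubK119 peaks of each siRNA, and the windows with the 2 lowest and 2 highest ratios. The text gives those of these that add values not yet shown. A named peak is given as its longest region in any antibody library. The tallest region of chromosome 22 and the dense bins of 250 kb were chosen after their values were seen. Leaving chromosome 18 out of the other autosomes was likewise chosen after the data were seen. The members and lists were chosen with earlier results of these data known. Python 3.11.15, pandas 2.3.3 and SciPy 1.17.1 were used.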

Additional observations from a re-analysis of the deposited data

Results flagged for a closer look

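At VRK1 regions of chromosomes 17, 19 and 22 the 2 marks differed in direction after siVRK1, with an RPM ratio of siVRK1 over siControl of 0.429 for pT120 and 1.83 for ubK119. The difference was not tested, since each ratio rests on 1 pair of libraries.

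The inputs differed in direction between chromosomes. At siControl pT120 regions the input ratio of siVRK1 over siControl was 1.44 (1.31 to 1.58) on chromosome 17, 1.45 (1.28 to 1.64) on chromosome 19 and 0.752 (0.646 to 0.876) on chromosome 22. The difference was not tested. Outside input peaks the ratio on chromosome 22 was 0.920 (0.637 to 1.33), over 12 regions.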

How the results depend on the processing

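No paired analysis was possible because each condition has 1 library and no replicate number. Of 143 recomputed values, 70 stayed within the reported interval (ratios and shares), 1.5 times (densities and counts of bins) or 1 SD (medians of windows), 54 moved beyond that and 19 crossed 1. Each alternative changes the regions, the peaks or the input by construction, and the cause of a shift was not tested otherwise.

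Density over the other autosomes was recomputed first. With heights of at least 20 reads it was 0.662 and 1.91 for pT120 after siVRK1 and in siControl cells, 0.852 for VRK1, 0.857 for siControl ubK119 and 0.960 for the siControl input. At a common height in RPM it was 1.03 for siVRK1 pT120 and 0.852 for VRK1. Outside input peaks siControl pT120 was at 1.15. With chromosome 18 left out of the other autosomes, an alternative chosen after seeing the data, it was 1.14 for siControl pT120 and 1.10 for the siVRK1 input. Without chromosome 17 it was 0.143 for siVRK1 pT120, 0.989 for VRK1, 0.786 for siControl ubK119 and 0.327 for the siControl input. Without chromosome 19 it was 0.923 for VRK1 and 0.992 for siControl ubK119. Over whole chromosomes it was 0.995 for siControl ubK119 and 1.02 for the siVRK1 input, which was at 1.13 without chromosome 22 and at 1.03 over the full length.

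The pT120 ratio at VRK1 regions stayed below 1 in each alternative. It was 0.489 with no limit on input reads, 0.395 with at most 50, 0.378 outside input peaks, 0.630 with heights of at least 20, 0.467 without chromosome 17, 0.409 without chromosome 22, 0.462 on whole chromosomes and 0.321 over the input ratio. Regions of other lists gave 0.404 (siVRK1 ubK119), 0.708 (siControl ubK119) and 0.598 (siControl input).

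For ubK119 the same settings gave 1.68, 1.90, 1.93 and 1.39, with 1.77 without chromosome 19 and 1.37 over the input ratio. Regions of other lists gave 1.49 (siControl pT120), 1.46 (siControl input) and, below 1, 0.831 (siVRK1 pT120). The input ratio was 1.19 with heights of at least 20 and 1.28 on whole chromosomes. Regions of other lists gave 1.27 (siControl pT120), 1.39 (siVRK1 ubK119), 1.21 (siControl ubK119) and 0.985 (siVRK1 pT120).

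With the input of the other siRNA, levels over input were 1.08 for VRK1, 0.533 and 0.929 for pT120 after siVRK1 and in siControl cells, 1.64 for siVRK1 ubK119 and 0.670 for siControl ubK119. With no limit on input reads siVRK1 pT120 was at 0.467 and siVRK1 ubK119 at 1.16. Outside input peaks siVRK1 pT120 was at 0.371, siControl pT120 at 1.34, siVRK1 ubK119 at 1.33 and siControl ubK119 at 0.941.

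Overlap shares outside input peaks were 1.34% (VRK1 with pT120), 2.55% (VRK1 with ubK119), 3.41% (siControl pT120 with ubK119), 0.583% (siVRK1 with siControl pT120) and 8.17% (siVRK1 with siControl ubK119), the last being 10.6% with an overlap of 0.5 of the shorter peak. With heights of at least 20 reads in both lists they were 51.7%, 58.3%, 90.6% and 83.9% for the first 4 and 52.6% for the inputs. Shares at that height were not computed for the other autosomes. With at least 30 reads in place of 20, a limit chosen after seeing the data, 40.24% of VRK1 regions were 2-fold higher in ubK119 and 8.93% in input. The shares of all regions were not computed at that limit.

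Bins dense in ubK119 numbered 20 with at least 15 siControl peaks and 5 with at least 30, and their pT120 ratio was 0.624 and 0.551, both limits chosen after seeing the data. The 51 regions with enough pT120 reads and the 46 VRK1 peaks of chromosome 22 limit what those counts can show.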
